A study of Rattus norvegicus with 6 samples.

Results

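Elastic fibres are the rubber-like part of connective tissue, and 10 of the genes that build them were followed in mesenchymal stem cells (MSC) of the rat, from 2 kinds of bone marrow: Eln, Fbn1, Fbn2, Fbln1, Fbln2, Fbln5, Efemp2, Emilin1, Lox and Loxl1. They were chosen by name, as rows of the deposited count table, which holds 30498 genes. All 10 were found, and all 10 passed the low-count filter. RNA sequencing covered 3 libraries of rcMSC, wild-type cells labelled as coming from cranial bone marrow, and 3 of rbMSC, wild-type cells from the marrow of femurs and tibias. Strain, age, sex and passage are not given in the labels. Nothing there says that libraries within a group are separate animals or cultures, so every p-value refers to the spread among these libraries, possibly a technical one.

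An elastic fibre has an amorphous core of elastin on a scaffold of microfibrils. Cells secrete soluble tropoelastin, fibulins bring it to fibrillin microfibrils, and copper-dependent lysyl oxidases cross-link its lysines so that the polymer becomes insoluble. Elastin is best known from arteries, lung, skin and ligament, where smooth muscle cells and fibroblasts make most of it, and stromal cells in culture lay down fibrillin and fibulin networks also where they make little elastin.

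Elastin RNA was scarce in the cranial cells, while RNA for the scaffold and the enzymes was not. Eln fell 28.0-fold in rcMSC against rbMSC. Fbln1, Fbln2 and Lox rose 3.84-fold, 3.27-fold and 2.66-fold, and Emilin1 and Fbln5 fell by smaller amounts. The tests of Fbn1, Fbn2, Efemp2 and Loxl1 did not pass. That makes 3 of 10 higher and 3 of 10 lower, with the groups apart in 6 of 10. Over all 14836 genes tested with edgeR's quasi-likelihood test at a Benjamini-Hochberg (BH) adjusted p under 0.05, 22.6% were higher in rcMSC, 23.2% were lower and 45.8% were called in either direction, and the groups did not overlap in 57.1%. The count of genes called is therefore near the background. Their median absolute log2 fold change was 0.57, beside 0.32 over all genes tested, and their median log2 fold change was 0.07, beside 0.02.

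Total counts ranged from 21340290 to 26928079 per library. Each member had at least 30 counts in every library, and Fbn1 reached 98441. Levels are given as RPKM, the counts per kilobase of exon scaled to library size with TMM (a scaling that sets aside the most changed genes). One library stood apart from its group. The root mean square difference in log2 CPM (counts scaled to library size) over all genes tested was 0.456 and 0.466 between rcMSC replicate 3 and rcMSC replicates 1 and 2, against 0.318 between replicates 1 and 2 and 0.312 to 0.323 among the rbMSC libraries. Each gene's change, the within-library ratios and the counts of genes called in each list were therefore also computed without rcMSC replicate 3. This leaves rcMSC replicates 1 and 2, which were close to each other, so p-values without replicate 3 refer to a smaller spread. The MSC surface markers Thy1, Cd44, Itgb1, Nt5e and Eng were detected in all libraries, with a summed level of 2574 to 3087 CPM in rcMSC and 3598 to 3637 CPM in rbMSC. Itgb1 alone had a mean of 1458 CPM in rcMSC and 1961 CPM in rbMSC. Cd44 and Eng were called higher in rcMSC, and Thy1, Itgb1 and Nt5e lower. The shares over all genes tested were 22.6% higher and 23.2% lower.

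Sequence was read for members of the fibulin family that moved in opposite directions. Promoter windows of 300 bases (250 before and 50 after the gene start, RefSeq, build GRCr8) were at hand for 6 of the 10 genes. Eln, Fbln1, Emilin1 and Lox had no window and were not searched. The stretches below, 5′ to 3′ on the gene's strand, hold the GC box nearest the gene start, and capitals mark it:
Fbln2: gcgggacccgtgGGGCGGggtctcaaggcc
Fbln5: acgcgccccgctCCGCCCcggggaggcccg
The Fbln2 stretch lies at chr4:125261588-125261617 on the plus strand, with its GC box starting 59 bases before the gene start. The Fbln5 stretch lies at chr6:126742885-126742914 on the minus strand, 196 bases before it. Windows were searched on both strands for the GC box GGGCGG, the TATA box TATAAA and the AP-1 site TGANTCA. Fbln2 had 3 GC boxes, Fbln5 had 1 and Efemp2 had 5, and the windows of Fbn1, Fbn2 and Loxl1 had 0. Of all 33469 promoter windows 33.1% held at least 1 GC box. Of the genes with a GC box here, Fbln2 rose, Fbln5 fell and Efemp2 did not pass. The part of the GC box in these changes was not tested. None of the 6 windows searched held the TATA box or the AP-1 site, which 14.2% and 7.33% of all windows held.

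Eln (ENSRNOG00000001469, chromosome 12, 21968544 to 22011928, plus strand, in build mRatBN7.2) encodes tropoelastin, the soluble precursor of the fibre core. Its counts were 43, 30 and 60 in rcMSC replicates 1 to 3 and 1032, 1058 and 1192 in rbMSC replicates 1 to 3. Per length this was 0.436, 0.3075 and 0.668 RPKM in rcMSC, against 13.4, 12.7 and 13.1 RPKM in rbMSC. All rcMSC libraries were low, rcMSC replicate 3 was the highest of them, and the groups were far apart. This was a change of -4.81 on the log2 scale (SE 0.18, 95% interval -5.20 to -4.41, edgeR BH-adjusted p = 2.92e-08), and -5.13 without rcMSC replicate 3. Only 48 of the 14836 genes tested had a lower log2 fold change. In rank of level Eln stood at percentile 11.4 of all genes tested in rcMSC and at percentile 74.2 in rbMSC. In bulk RNA, fewer cells of a type that makes elastin and less elastin RNA per cell cannot be told apart.

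The fibrillins, large glycoproteins that polymerise into the microfibril scaffold, did not pass the test with all libraries. Fbn1 (ENSRNOG00000007302, chromosome 3, 112554925 to 112750889, minus strand), the fibrillin of adult tissues mutated in human Marfan syndrome, had 305, 308 and 411 RPKM in rcMSC and 319, 312 and 306 RPKM in rbMSC. Only rcMSC replicate 3 lay outside the rbMSC range by more than a few RPKM, and the groups overlapped. The log2 change was 0.13 (95% interval -0.12 to 0.37, edgeR BH-adjusted p = 0.362), and -0.028 without rcMSC replicate 3. It passed at 0.28 when each library's trend with gene length was removed (edgeR BH-adjusted p = 0.0148). Fbn2 (ENSRNOG00000043219, chromosome 18, 51499737 to 51703976, minus strand), the fibrillin most used in development, had 13.6, 12.8 and 9.69 RPKM in rcMSC, against 10.3, 10.6 and 10.2 RPKM in rbMSC. Here rcMSC replicates 1 and 2 lay above all rbMSC libraries and replicate 3 below them. The log2 fold change of 0.21 (95% interval -0.04 to 0.46) did not pass with all libraries (edgeR BH-adjusted p = 0.15) and passed at 0.34 without rcMSC replicate 3 (edgeR BH-adjusted p = 8.8e-09).

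Set against each other within a library, which needs no library scaling, elastin and its scaffold came apart. The summed level of the fibrillins was 730, 1043 and 631 times that of Eln in rcMSC replicates 1 to 3, and 24.5, 25.3 and 24.1 times in the rbMSC replicates. Each rcMSC library had far less elastin per fibrillin than any rbMSC library. The difference in the mean log2 ratio of Eln to fibrillin was -4.99 (exact permutation test over libraries, two-sided, p = 0.1, the smallest that 3 against 3 allows), and -5.15 without rcMSC replicate 3. Fbn1 exceeded Fbn2 per length by 22.4, 24.2 and 42.5 times in rcMSC and by 30.9, 29.4 and 29.9 times in rbMSC. This ratio straddled the rbMSC values, and its mean did not differ beyond the spread (difference of Fbn2 to Fbn1 on the log2 scale 0.08, exact permutation p = 1, and 0.37 without rcMSC replicate 3).

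**Figure D1:**
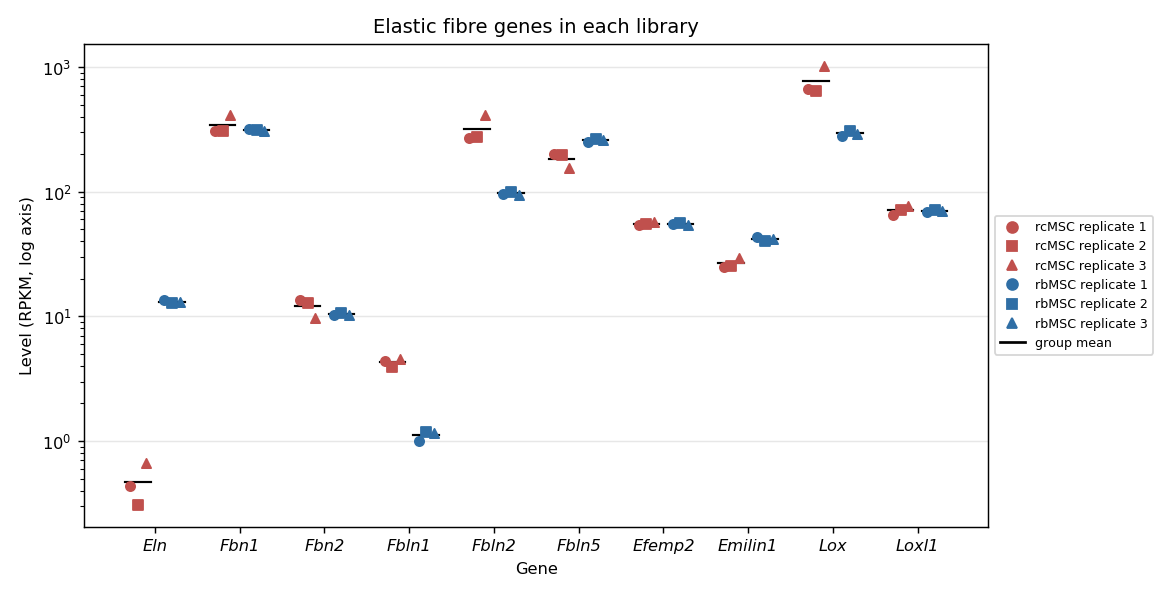
Level of each gene (RPKM, log axis) in the 3 rcMSC libraries (red, left) and the 3 rbMSC libraries (blue, right), with a line at each group mean. Eln lies below 1 RPKM in every rcMSC library and near 13 RPKM in rbMSC, and the red triangles, rcMSC replicate 3, stand away from the other rcMSC libraries for Fbn1, Fbln2, Fbln5 and Lox.

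The fibulins, a family of matrix glycoproteins, differed in direction. Fbln2 (ENSRNOG00000007338, chromosome 4, 123704373 to 123763948, plus strand), which binds elastin, fibrillin and basement membrane proteins, had 267, 275 and 408 RPKM in rcMSC, against 96.1, 99.8 and 94.7 RPKM in rbMSC. All rcMSC libraries lay above all rbMSC libraries, with replicate 3 the highest. Its log2 fold change was 1.71 (SE 0.16, edgeR BH-adjusted p = 1e-04), and 1.49 without rcMSC replicate 3. Fbln1 (ENSRNOG00000014137, chromosome 7, 116310582 to 116390075, plus strand), also found within elastic fibres and in basement membranes, was much scarcer, with 4.34, 3.94 and 4.53 RPKM in rcMSC and 1.00, 1.17 and 1.16 RPKM in rbMSC. Its groups were apart too, at a log2 change of 1.94 (SE 0.12, edgeR BH-adjusted p = 5.09e-07), and 1.90 without rcMSC replicate 3.

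Fbln5 (ENSRNOG00000050539, chromosome 6, 120899224 to 120977755, minus strand), which tethers tropoelastin and Loxl1 to microfibrils and is needed for elastic fibres in the mouse, went the other way. It had 201, 198 and 154 RPKM in rcMSC, against 252, 265 and 260 RPKM in rbMSC. Every rcMSC library was lower, and replicate 3 was the lowest. On the log2 scale the change was -0.49 (SE 0.09, edgeR BH-adjusted p = 0.0022), and -0.38 without rcMSC replicate 3. Efemp2 (ENSRNOG00000020587, chromosome 1, 202781665 to 202789414, plus strand), also called fibulin-4, which brings Lox to elastin, had 55.5 ± 1.65 RPKM in rcMSC and 55.3 ± 1.12 RPKM in rbMSC (SD over 3 libraries). The groups overlapped, and the 95% interval of its log2 fold change of 0.0051 ran from -0.11 to 0.12 (edgeR BH-adjusted p = 0.946). Without rcMSC replicate 3 it was -0.016.

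Within the fibulins the largest level was that of Fbln2 in rcMSC and that of Fbln5 in rbMSC. The level of Fbln2 was 1.03, 1.07 and 1.90 times the sum of Fbln1, Fbln5 and Efemp2 in rcMSC, and 0.312, 0.309 and 0.3001 times in rbMSC. The mean log2 ratio differed by 2.06 (exact permutation p = 0.1, the smallest possible), and by 1.77 without rcMSC replicate 3. Emilin1 (ENSRNOG00000008246, chromosome 6, 25445298 to 25463698, minus strand), a glycoprotein at the border of elastin and microfibrils that restrains TGF-beta maturation in the mouse, had 25.01, 25.3 and 29.3 RPKM in rcMSC, against 43.0, 40.4 and 41.7 RPKM in rbMSC. All rcMSC libraries were lower, at a log2 change of -0.65 (SE 0.07, edgeR BH-adjusted p = 4.25e-05), and -0.73 without rcMSC replicate 3. Its exons share 1328 bases with Khk, a fructose kinase gene that had at most 24 counts in any library.

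**Figure D2:**
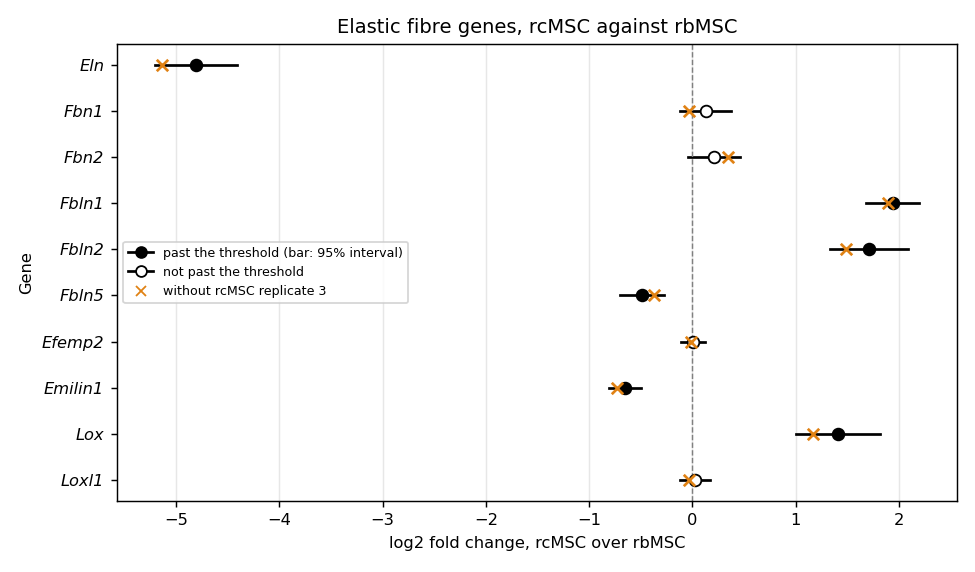
The log2 fold change of each gene, rcMSC over rbMSC, with its 95% interval from the edgeR fit; filled points passed an adjusted p of 0.05 and crosses give the value without rcMSC replicate 3. Eln stands alone at -4.81, Fbln1, Fbln2 and Lox lie between 1.41 and 1.94, and the crosses move away from 0 for Eln, Fbn2 and Emilin1 and towards 0 for Fbln1, Fbln2, Fbln5 and Lox.

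The lysyl oxidases, which oxidise lysines of elastin and collagen so that the chains cross-link, also came apart. Lox (ENSRNOG00000014426, chromosome 18, 45967343 to 46041477, minus strand), which acts on collagen as well as elastin, had 671, 644 and 1019.8 RPKM in rcMSC, against 281, 305 and 292 RPKM in rbMSC. All rcMSC libraries lay above all rbMSC libraries, with replicate 3 well above the other rcMSC libraries. Its log2 change was 1.41 (SE 0.17, edgeR BH-adjusted p = 0.000514), and 1.17 without rcMSC replicate 3. Loxl1 (ENSRNOG00000008680, chromosome 8, 58692593 to 58716356, minus strand), the relative that in the mouse is needed to renew elastic fibres in adults, had 71.0 ± 5.45 RPKM in rcMSC and 70.0 ± 1.55 RPKM in rbMSC (SD over 3 libraries). Its groups overlapped, with a log2 change of 0.022 and a 95% interval from -0.12 to 0.17 (edgeR BH-adjusted p = 0.807), and -0.033 without rcMSC replicate 3.

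Lox exceeded Loxl1 per length by 10.2, 9.04 and 13.4 times in rcMSC and by 4.12, 4.28 and 4.15 times in rbMSC. The groups did not overlap, and the mean log2 ratio of Loxl1 to Lox differed by -1.36 (exact permutation p = 0.1, the smallest possible), and by -1.20 without rcMSC replicate 3. Lox shares 133 exon bases with the antisense gene Zfp474, which had at most 4 counts in any library. Loxl1 shares 31 with an unnamed antisense gene (ENSRNOG00000069897) that had at most 238. The strand setting of the counting is unknown, so reads over these shared bases cannot be assigned to 1 gene.

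**Figure D3:**
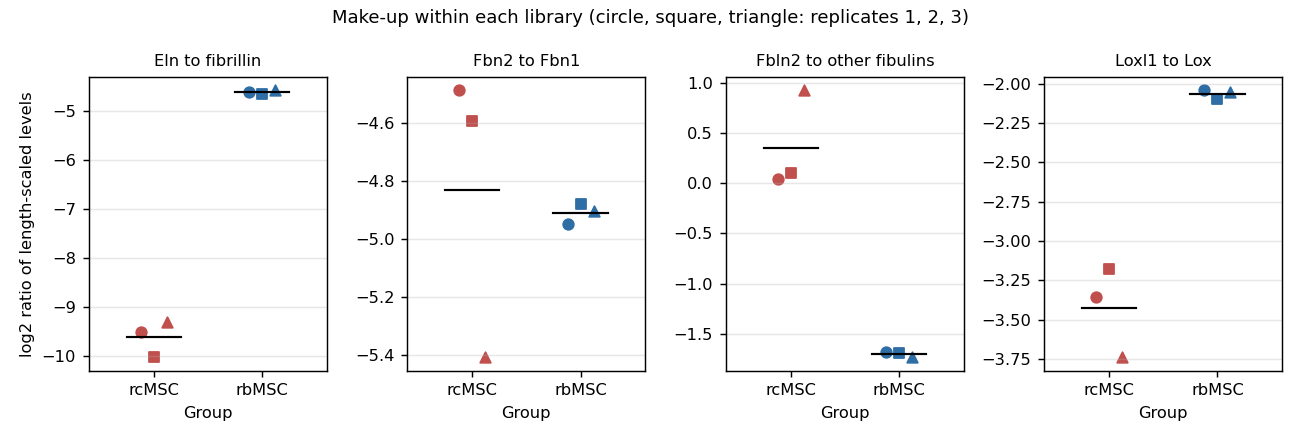
Within-library log2 ratios of length-scaled levels, with rcMSC left and rbMSC right in each panel, a line at the group mean and a separate axis per panel. The groups are apart for Eln to fibrillin, Fbln2 to the other fibulins and Loxl1 to Lox, while for Fbn2 to Fbn1 the rcMSC libraries lie on both sides of the rbMSC libraries.

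The order of the genes by level per length differed at the top and at the bottom. In rcMSC, Lox led, followed by Fbn1 and Fbln2, whose library ranges overlapped, then Fbln5, Loxl1, Efemp2, Emilin1, Fbn2, Fbln1 and Eln, each below the one before with no overlap. In rbMSC, Fbn1 led, followed by Lox, Fbln5, Fbln2, Loxl1, Efemp2, Emilin1, Eln, Fbn2 and Fbln1, with no overlap between neighbours. Lox made up 43.0% ± 3.47 of the summed level of the 10 genes in rcMSC and 25.4% ± 0.63 in rbMSC (SD over 3 libraries). Fbn1 made up 19.1% ± 0.22 in rcMSC and 27.1% ± 0.77 in rbMSC. Eln took 0.0257% ± 0.0059 in rcMSC and 1.14% ± 0.05 in rbMSC. The sum itself was 1791 ± 330 RPKM in rcMSC and 1153 ± 19.2 RPKM in rbMSC.

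Spread within a group was also unequal. The coefficient of variation of the 10 levels ran from 2.98% (Efemp2) to 38.8% (Eln) in rcMSC and from 1.84% (Fbn2) to 8.43% (Fbln1) in rbMSC. For Eln and Fbln1, with few counts per library in the group where each is scarce, counting error is part of that spread.

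Other genes of the elastic fibre moved in both directions. Of 35 listed, 33 were in the table and 28 passed the low-count filter. Of these, 7 were higher, 11 lower and 10 not past the threshold, with a median log2 fold change of -0.11. Over all genes tested, 22.6% were higher and 23.2% lower. The calls among the listed genes were 3 higher and 9 lower without rbMSC replicate 1 or rbMSC replicate 2. They were 4 and 7 without rbMSC replicate 3, and 8 and 15 without rcMSC replicate 3. Calls over all genes tested moved the same way, from 3351 higher and 3445 lower with all libraries. They were 2542 and 2794 of 15122 without rbMSC replicate 1, and 2601 and 2803 of 15090 without rbMSC replicate 2. Without rbMSC replicate 3 they were 2660 and 2843 of 15108, and without rcMSC replicate 3 they were 4512 and 4558 of 15096. Mfap4, a microfibril-associated glycoprotein that binds tropoelastin and fibrillin, rose most. Its level was 157, 154 and 140 CPM in rcMSC, against 3.32, 3.25 and 5.39 CPM in rbMSC, a log2 change of 5.22 (SE 0.16, edgeR BH-adjusted p = 2.79e-08).

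Mfap5, a small microfibril protein, had 25.9, 24.6 and 30.2 CPM in rcMSC, against 7.77, 8.35 and 7.13 CPM in rbMSC, with no overlap (log2 change 1.79, edgeR BH-adjusted p = 6.7e-07). The integrin subunits Itgb3 and Itgb5, parts of receptors for fibrillin and fibulin-5, fell by 1.87 and 0.90 on the log2 scale (edgeR BH-adjusted p = 2.16e-06 and 8.16e-05). Loxl3, a further lysyl oxidase, fell by 0.90 on the log2 scale (edgeR BH-adjusted p = 0.000818). Efemp1 (fibulin-3) was lower by a log2 change of -1.16 (edgeR BH-adjusted p = 0.0108), at a mean of only 1.23 CPM in rcMSC and 2.755 CPM in rbMSC. This call was lost without rbMSC replicate 2 or 3 (edgeR BH-adjusted p = 0.0506 and 0.0518).

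Whether Ltbp2, a fibrillin-binding protein that helps place fibulin-5, passed depended on rcMSC replicate 3 and on the test. It had 542, 546 and 1275 CPM in rcMSC, against 1333, 1335 and 1314 CPM in rbMSC. Replicates 1 and 2 were low, and replicate 3 was near the rbMSC level. This gave a log2 change of -0.75 with all libraries (edgeR BH-adjusted p = 0.157) and -1.29 without rcMSC replicate 3 (edgeR BH-adjusted p = 5.73e-39). With limma voom and quality weights, a fit that lets libraries count unequally, it passed with all 6 libraries at -1.19 (limma adjusted p = 8.57e-08). Loxl2, a lysyl oxidase active on collagen IV, had 1155, 1184 and 1975 CPM in rcMSC, against 1573, 1622 and 1587 CPM in rbMSC, so that rcMSC replicates 1 and 2 lay below all rbMSC libraries and replicate 3 above them. It did not pass at -0.15 (edgeR BH-adjusted p = 0.591) and passed at -0.45 without rcMSC replicate 3 (edgeR BH-adjusted p = 2.79e-19). Ctsa, the protective protein of the elastin receptor complex, was at -0.03 (edgeR BH-adjusted p = 0.665).

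Proteases that cut elastin or microfibrils and their inhibitors were taken as 1 list, so its counts give no net direction of breakdown. Of 19 listed, 13 were tested, with 7 higher, 3 lower and a median log2 fold change of 0.39 (8 and 4 called without rcMSC replicate 3). Over all genes tested, 22.6% were higher and 23.2% lower with all libraries, and 4512 and 4558 of 15096 without rcMSC replicate 3. Mmp2, the gelatinase A, had 2770, 2859 and 3045 CPM in rcMSC, against 1209, 1237 and 1219 CPM in rbMSC, with the groups well apart (log2 change 1.24, edgeR BH-adjusted p = 1.03e-07). The cysteine cathepsin Ctsl rose by a log2 change of 0.80, while Ctss, a cathepsin rich in macrophages, fell by 1.03 on the log2 scale (edgeR BH-adjusted p = 2.11e-05 and 1.64e-06). Mmp3 (stromelysin 1) fell by 0.90 on the log2 scale (edgeR BH-adjusted p = 0.0045), at a mean of 1.65 CPM in rcMSC and 3.06 CPM in rbMSC. The inhibitors Timp3 and Timp4 rose by log2 changes of 1.04 and 1.41 (edgeR BH-adjusted p = 2.54e-06 and 0.00299). Timp4 was scarce, at a mean of 1.77 CPM in rcMSC and 0.665 CPM in rbMSC, against 86.5 and 42.2 CPM for Timp3. Ctsb (0.11), Timp1 (-0.01) and Mmp9 (0.84) did not pass (edgeR BH-adjusted p = 0.19, 0.97 and 0.188), and without rcMSC replicate 3 Ctsb and Timp1 passed at 0.17 and -0.28 (edgeR BH-adjusted p = 3.16e-06 and 1.38e-05). Mmp9 was at 0.16 without rcMSC replicate 3 and at 1.18 without rcMSC replicate 1, and passed in neither case. Its mean level was only 0.835 CPM in rcMSC and 0.459 CPM in rbMSC.

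Of 24 genes known to act on elastin transcription or RNA, 14 were lower in rcMSC and 4 higher, with a median log2 fold change of -0.39. Without rcMSC replicate 3, 15 were lower and 4 higher. Over all genes tested, 23.2% were lower and 22.6% higher with all libraries, and 4558 and 4512 of 15096 without rcMSC replicate 3. The list was not split by whether a gene raises or lowers elastin expression, so its counts give no net direction. The TGF-beta ligands, which raise elastin expression in many cells, were among the genes that fell. Tgfb3 had 262, 249 and 303 CPM in rcMSC, against 896, 916 and 933 CPM in rbMSC, with no overlap (log2 change -1.75, edgeR BH-adjusted p = 5.18e-08). Tgfb2 had 214, 199 and 288 CPM in rcMSC, against 700.0, 702 and 689.9 CPM in rbMSC (log2 change -1.58, edgeR BH-adjusted p = 1.6e-05). Myocd (myocardin), the coactivator of smooth muscle genes, had 6.30, 6.995 and 11.6 CPM in rcMSC, against 46.3, 51.5 and 53.8 CPM in rbMSC (log2 change -2.62, edgeR BH-adjusted p = 2.18e-05). All rcMSC libraries were lower for each of these genes, with replicate 3 the highest of them.

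Fos, an AP-1 subunit, fell by 1.402 on the log2 scale (edgeR BH-adjusted p = 3.07e-08). Igf1, which raises elastin expression in smooth muscle cells, and Klf4 rose by log2 changes of 1.96 and 1.32 (edgeR BH-adjusted p = 9.5e-05 and 4.6e-07). Ski (0.10), Sp1 (-0.0021) and Jun (-0.09) did not pass (edgeR BH-adjusted p = 0.252, 0.983 and 0.378). Without rcMSC replicate 3, Jun passed at -0.14 (edgeR BH-adjusted p = 0.0301). The part of these control genes in the fall of Eln was not tested.

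**Figure D4:**
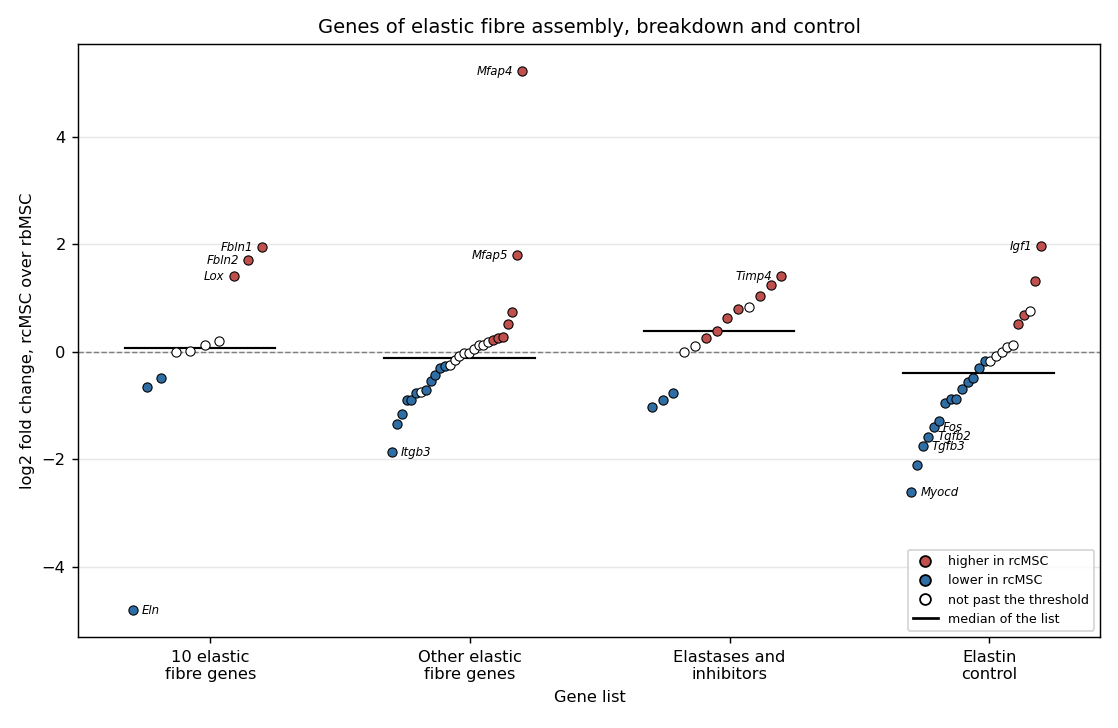
The log2 fold change, rcMSC over rbMSC, of every tested gene in 4 lists, in rank order within each list, with a line at the list's median and names for some genes with large changes. Eln at -4.81 and Mfap4 at 5.22 lie farthest from 0, and the elastin control list sits lowest, with a median of -0.39.

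Markers of other cell types moved beside these genes. Of 15 smooth muscle and pericyte markers, 14 were tested, and 12 were lower, 0 higher, with a summed level of 3111 to 3388 CPM in rcMSC and 7121 to 7429 CPM in rbMSC. Without rcMSC replicate 3, 14 of 15 tested were lower and 1 higher. With all libraries, the shares over all genes tested were 23.2% lower and 22.6% higher, here and for the marker lists below. For the counts without rcMSC replicate 3, 4558 of 15096 genes tested were lower and 4512 higher. Mylk (myosin light chain kinase) had 7.28, 6.96 and 8.48 CPM in rcMSC, against 304, 302 and 299.9 CPM in rbMSC (log2 change -5.32, edgeR BH-adjusted p = 6.51e-11). None of the 15 was at 0 in all libraries. Those that did not pass were Smtn (0.15) and Des (-0.66), with edgeR BH-adjusted p = 0.189 and 0.088, and without rcMSC replicate 3 both passed, at 0.25 and -0.99 (edgeR BH-adjusted p = 2.16e-06 and 0.00121). Their part in the fall of Eln was not tested.

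The 5 genes whose profile over the 6 libraries lay nearest to that of Eln, by the root mean square difference of centred log2 CPM, were Pcdh20 (0.248), Tinagl1 (0.27), Mcam (0.311), Stxbp5l (0.314) and Lama5 (0.32). With only 2 groups such likeness reflects mainly the size of the group difference. Tendon markers differed as well. Scx (scleraxis) had 73.3, 70.5 and 76.3 CPM in rcMSC, against 13.6, 15.3 and 14.7 CPM in rbMSC (log2 change 2.33, edgeR BH-adjusted p = 5.94e-09). Mkx and Tnmd rose by log2 changes of 4.16 and 4.22 (edgeR BH-adjusted p = 1.15e-08 and 3.56e-07). Thbs4, a tendon matrix protein, had 655, 673 and 1107 CPM in rcMSC, against 4.398, 4.76 and 7.01 CPM in rbMSC (log2 change 7.22, edgeR BH-adjusted p = 1.49e-05). Lum (lumican) and Cd34 fell by 0.93 and 1.78 on the log2 scale (edgeR BH-adjusted p = 5.16e-07 and 0.00112). Of the 10 fibroblast and tendon markers, 5 rose and 5 fell (5 and 4 without rcMSC replicate 3). Their summed level was 1382 to 1836 CPM in rcMSC and 984 to 1040 CPM in rbMSC, and without Thbs4 it was the lower one in rcMSC, at 709 to 745 CPM, against 979 to 1035 CPM in rbMSC. Their part in the fibulin and Lox changes was not tested.

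Of the other marker lists, macrophage genes summed to 693 to 723 CPM in rcMSC and 1142 to 1148 CPM in rbMSC, with 10 of 15 tested lower and 0 higher (11 and 1 without rcMSC replicate 3). Endothelial genes summed to 36.2 to 38.1 CPM in rcMSC and 44.0 to 45.3 CPM in rbMSC, with 1 of 8 tested higher and 2 lower. Without Erg the endothelial sums overlapped, at 17.1 to 19.6 CPM in rcMSC and 15.4 to 17.9 CPM in rbMSC. Chondrocyte genes summed to 5797 to 6127 CPM in rcMSC and 3767 to 3930 CPM in rbMSC, with 2 of 6 tested higher and 4 lower. The collagen gene Col11a1 made up most of that sum, and the other chondrocyte genes summed to 102 to 145.5 CPM in rcMSC and 443.5 to 453.5 CPM in rbMSC. Most of that rest in rbMSC was Acan, at 335, 327 and 314 CPM, against 12.5, 14.8 and 40.1 CPM in rcMSC. The 2 chondrocyte genes that rose were Col11a1 and Col2a1, at log2 changes of 0.79 and 2.145. Osteoblast genes summed to 35030 to 43500 CPM in rcMSC and 21770 to 22110 CPM in rbMSC, with 2 of 8 tested higher, 5 lower (6 lower without rcMSC replicate 3) and the defining marker Bglap at 0 in all libraries. Nearly all of it was Col1a1, a collagen gene that fibroblasts express too, and the other osteoblast genes summed to 122 to 334 CPM in rcMSC and 751 to 774 CPM in rbMSC. Most of that rest in rbMSC was Spp1, at 632, 649 and 653 CPM, against 33.5, 32.4 and 246 CPM in rcMSC. Spp1 did not pass with all libraries (edgeR BH-adjusted p = 0.103). The 2 osteoblast genes that rose were Col1a1 and Runx2, at log2 changes of 0.84 and 0.715. The part of these lists in the elastic fibre changes was not tested.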

How the data were processed

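Total RNA was sequenced as paired reads of 150 nt. Trim Galore 0.6.7 and Trimmomatic 0.39 served for trimming, STAR 2.7.9a for mapping to mRatBN7.2 and featureCounts 2.0.1 for counting, per the labels' protocols. The submitters' processing notes also list DESeq2 1.20.0. Not given in the sources used here are the strand setting, the annotation release and how multiply mapped reads were handled. The authors deposited raw gene counts, with no normalization.

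From these counts, edgeR 4.0.16 (R 4.3.3) was run on the whole table with TMM scaling, filterByExpr (minimum count 10), robust quasi-likelihood F tests and Benjamini-Hochberg adjustment over 14836 genes, with no covariate. SE is the log2 fold change over the square root of F. RPKM used the deposited exon length, the union over transcripts, so levels between genes depend on the annotation. The scripts were tested on simulated counts. Counting noise was exceeded in all pairs of libraries within a group (chi-square per degree of freedom 2.69 to 42.8). Intervals of the log2 fold change are 95%.

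All 10 genes were to be named; in each other list the rule took up to 6 called genes of largest change (mean log2 CPM of at least 0) and up to 3 that did not pass, of highest level. The last marker lists are given as sums, and not every gene the rule took is printed. The genes and lists were chosen with earlier results of these data known. Alternatives were other scalings, filters and tests (DESeq2 1.42.0, limma 3.58.1), the replicate block, a length correction and each library left out.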

Additional observations from a re-analysis of the deposited data

How the results depend on the processing

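Under 16 alternatives, Eln (-5.13 to -4.57 on the log2 scale), Fbln1 (1.87 to 2.01), Fbln2 (1.49 to 1.82), Lox (1.17 to 1.53), Fbln5 (-0.56 to -0.38) and Emilin1 (-0.73 to -0.55) kept their direction and their call. Members called were 3 or 4 higher and 3 lower. Leaving out 1 library, other elastic fibre genes called ranged from 3 to 8 higher and from 7 to 15 lower, and all genes called from 2542 to 4512 higher and from 2794 to 4558 lower. The sign of values near 0 was not settled: without 1 library Fbn1 ranged from -0.028 to 0.21, Efemp2 from -0.016 to 0.029, Loxl1 from -0.033 to 0.079, Timp1 from -0.28 to 0.12, Sp1 from -0.049 to 0.073 and the log2 Fbn2 to Fbn1 ratio difference from -0.091 to 0.37. Efemp2 was at -0.0049 with total counts only, and with limma voom Efemp2 was at -0.011, Loxl1 at -0.022 and Sp1 at 0.055. With the length trend removed Efemp2 was at -0.038, Loxl1 at -0.0092, Ctsa at 0.036 and Sp1 at 0.14, and with no low-count filter Sp1 was at 0.0042. The cause was not tested. Replicate numbers did not pair the libraries (correlations of same-numbered deviations -0.03, 0.02 and -0.05), and with the replicate block 3046 genes were higher and 3251 lower, with Eln at -4.82, and no member's call changed. With limma voom and all libraries, genes that edgeR did not call passed: Fbn2 at 0.31 (adjusted p = 0.000457), Ltbp2 at -1.19, Loxl2 at -0.39, Ctsb at 0.15, Timp1 at -0.23, Smtn at 0.22 and Des at -0.89. With the length trend removed Fbn1 and Ski passed, at 0.28 and 0.21. Counts of marker lists without rcMSC replicate 3, and sums without the gene most different in CPM, were chosen after seeing the data.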
